A study of Mus musculus with 12 samples.

Results

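Of the 26706 Rpb2 peaks of mouse microglia, 2600 lie in DNA that the deposited annotation calls intergenic and that carries the enhancer mark H3K27ac. By GENCODE, a fuller annotation, 1094 of the 2600 have no annotated feature nearby. These lie outside transcripts, over 500 bp from a start and not within 10 kb past a gene end. The others lie at, in or within 10 kb past a GENCODE gene. Rpb2 is a core subunit of RNA polymerase II, and ChIP-seq recovers the DNA that a protein sits on, so reads gather where the polymerase was. The 2600 peaks, called members from here on, were chosen by the deposited annotation and by the peak calls. Each is annotated as intergenic, lies over 2000 bp from the nearest transcription start site (TSS), is not annotated as an LTR repeat, and overlaps by at least 1 bp an H3K27ac peak that was called in both genotypes. Of 4843 intergenic Rpb2 peaks, 4525 passed the distance limit, 4112 also lay outside LTR repeats, and 2600 of these overlapped such an acetylated peak. Being acetylated and being occupied by Rpb2 are therefore properties that selected the members and not results about them.

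Microglia, the resident macrophages of the brain, were taken at 2 mo of age from *Cx3cr1* +/+ mice (WT) and from *Cx3cr1* eGFP/eGFP littermates, in which the gene for eGFP disrupts both copies of *Cx3cr1* (KO). *Cx3cr1* encodes the receptor for fractalkine. All mice were on the C57BL/6J background, and the deficiency is in the germline and so in every cell. Cells were sorted as CD11b+CD45lo, and each sample was a pool from 3 mice, with a female and a male pool by label for each genotype and mark. Each comparison of genotypes is thus of n = 2 pools against 2. The input samples were not analysed here.

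The Rpb2 libraries held 11662185 to 16528108 reads, except the KO female library with 44332626 reads. In the 3 Y-linked Rpb2 peaks, 136 reads came from the library labelled WT female, while the male libraries had 214 (WT) and 266 (KO) and the KO female library had 0. The first of these counts goes against that library's sex label, and its genotype label was kept. The WT female H3K27ac library stands apart, with 15.9% of its reads in peaks against 61.1% to 65.3% in the other 3. Promoter Rpb2 peaks were present at 11 of 12 microglial marker genes, at 0 of 5 neuronal, 0 of 5 astrocyte, 0 of 5 border macrophage, 0 of 5 neutrophil and monocyte and 0 of 4 lymphocyte markers, at 1 of 5 oligodendrocyte markers (*Mbp*, 16.0 to 84.0 CPM over the libraries) and at 1 of 4 endothelial markers (*Pecam1*, 19.8 to 38.9 CPM). These values are summed over a gene's promoter peaks, and both upper values came from the library labelled WT female. The next highest were in the KO female library, at 35.3 CPM for *Mbp* and 22.2 CPM for *Pecam1*. Summed over the microglial markers, the level was 1954 to 2050 CPM (normalized reads, defined with the levels of members) and *Aif1* was the microglial marker without such a peak. The Rpb2 peak at the start of *Cx3cr1* itself is no member and held 369 and 462 WT reads against 1442 and 623 KO reads. KO over WT was −0.23 on the log2 scale (SE 0.19), which did not pass edgeR's quasi-likelihood test (adjusted p = 0.650).

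Enhancers are stretches of DNA that raise the transcription of genes at a distance. Active enhancers carry acetylated lysine 27 of histone H3 on the nucleosomes around them, and RNA polymerase II is recruited to them and often makes short, unstable enhancer RNAs in both directions. In microglia, the transcription factor PU.1, encoded by *Spi1*, binds at many of them beside factors of the C/EBP, IRF, RUNX, MEF2 and AP-1 families. Peaks annotated as intergenic can also be start sites or gene ends that the annotation lacks, or genes for small nuclear RNAs (snRNAs), many of which RNA polymerase II transcribes.

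The sequences that show this range are the 200 bp around the middle of 8 members, read from the plus strand of GRCm38, the assembly named mm10 in the deposited files. The first 3 are from the 6 members with the most reads and hold bases of snRNA genes, which are in capitals. The *Gm24265* window holds the whole gene, and the *Rnu5g* and *Rnu2-10* windows hold parts of theirs. *Rnu5g* lies on the minus strand, so its window ends inside the gene, while *Rnu2-10* and *Gm24265* lie on the plus strand. In the other 5, capitals mark any of the 10 motifs that were searched. The windows are chr9:65201598-65201797 for *Rnu5g*, chr11:101658394-101658593 for *Rnu2-10*, chr5:115489446-115489645 for *Gm24265*, chr2:91082974-91083173 for the member upstream of *Spi1*, chr15:81523259-81523458 for the member downstream of *Rbx1*, chr9:120046472-120046671 for the member downstream of *Cx3cr1* and, for those downstream of *Ccr1*, chr9:123923619-123923818 for the member without reads in KO and chr9:123928202-123928401 for the member with more reads in KO.
Rnu5g: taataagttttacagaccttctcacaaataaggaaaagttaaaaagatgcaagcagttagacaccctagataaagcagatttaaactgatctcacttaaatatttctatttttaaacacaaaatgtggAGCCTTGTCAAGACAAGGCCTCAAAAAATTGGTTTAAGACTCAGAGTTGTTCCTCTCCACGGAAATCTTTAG
Rnu2-10: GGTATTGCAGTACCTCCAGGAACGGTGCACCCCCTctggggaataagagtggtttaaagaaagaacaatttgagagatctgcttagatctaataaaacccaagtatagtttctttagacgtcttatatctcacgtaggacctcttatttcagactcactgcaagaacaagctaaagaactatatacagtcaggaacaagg
Gm24265: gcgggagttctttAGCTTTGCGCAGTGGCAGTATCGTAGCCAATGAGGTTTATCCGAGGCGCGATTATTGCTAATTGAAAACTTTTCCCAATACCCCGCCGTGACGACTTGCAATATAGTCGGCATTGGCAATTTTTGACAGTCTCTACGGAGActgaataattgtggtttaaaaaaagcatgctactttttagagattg
Spi1 upstream: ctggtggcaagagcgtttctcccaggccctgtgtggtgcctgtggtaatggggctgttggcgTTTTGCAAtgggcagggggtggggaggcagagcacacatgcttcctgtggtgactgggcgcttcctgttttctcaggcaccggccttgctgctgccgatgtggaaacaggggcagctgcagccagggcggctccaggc
Rbx1 downstream: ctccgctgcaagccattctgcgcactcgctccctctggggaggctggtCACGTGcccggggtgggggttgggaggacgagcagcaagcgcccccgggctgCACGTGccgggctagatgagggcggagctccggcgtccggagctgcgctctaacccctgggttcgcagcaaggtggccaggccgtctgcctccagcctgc
Cx3cr1 downstream: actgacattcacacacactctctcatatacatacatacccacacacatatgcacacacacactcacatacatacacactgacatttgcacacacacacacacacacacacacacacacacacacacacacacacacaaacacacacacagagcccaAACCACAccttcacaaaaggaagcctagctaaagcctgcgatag
Ccr1 downstream without reads in KO: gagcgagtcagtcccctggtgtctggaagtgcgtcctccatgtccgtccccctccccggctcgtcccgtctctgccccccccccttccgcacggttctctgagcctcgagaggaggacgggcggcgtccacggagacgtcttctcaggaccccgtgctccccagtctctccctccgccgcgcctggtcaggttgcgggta
Ccr1 downstream with more reads in KO: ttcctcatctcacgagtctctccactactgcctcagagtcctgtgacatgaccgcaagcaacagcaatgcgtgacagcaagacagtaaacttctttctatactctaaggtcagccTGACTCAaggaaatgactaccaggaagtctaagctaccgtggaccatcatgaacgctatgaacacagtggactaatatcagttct
The *Spi1* window holds 1 C/EBP match, the *Rbx1* window holds 2 E-boxes, the *Cx3cr1* window holds 1 RUNX match read on the minus strand, and the last *Ccr1* window holds 1 AP-1 match. The *Cx3cr1* window also holds an uninterrupted run of 50 bases of the dinucleotide CA, and the deposited annotation calls that peak a simple repeat.

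Positions were also taken from GENCODE, an annotation with more transcripts than the one used for the peaks. Of the 2600 members, 1094 (42.1%) had no GENCODE feature nearby, which means that they fell in none of the classes given next. Such members can still lie upstream of a gene, as does the member 1859 bp from the *Cdca7* start. A further 751 (28.9%) lay within 10 kb past the end of a gene, 298 (11.5%) within 500 bp of a GENCODE start, 260 inside a transcript of a gene that codes for no protein, 177 inside a transcript of a coding gene, and 20 within 200 bp of a small RNA gene. The 1283 intergenic Rpb2 peaks without an H3K27ac peak, chosen by the same limits on distance and repeats, were distributed otherwise. Of those, 952 (74.2%) lay past a gene end and 80 (6.24%) had no feature nearby. Members were 197 to 678 bp wide, with a median of 262.5 bp. Their median distance to the TSS was 18911.5 bp, the quartiles were 7849.75 and 43609.2 bp, and 205 members (7.88%) lay over 100 kb away. Upstream positions were more frequent, at 1747 members against 853 downstream. The annotation marked 228 members (8.77%) as CpG islands, against 1.17% of the intronic Rpb2 peaks over 2000 bp from a TSS and 0.0779% of the intergenic peaks without H3K27ac. The X chromosome held 37 members and the Y chromosome 0. Most members could be mapped uniquely: in 2472 of 2600 no stretch of 51 bases, the read length, occurs a second time in the assembly.

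Rpb2 was denser in members than in the intergenic peaks without H3K27ac and in the deep intronic peaks. Levels are in CPM, relative to the reads in all Rpb2 peaks of a library after TMM normalization, and averaged over the 4 libraries. Since peak calling itself depends on the level, they are a description. Per kb of peak, the median member held 101 CPM, with quartiles of 64.8 and 164. The median was 46.8 CPM per kb in the intergenic peaks without H3K27ac, 53.8 in the 7530 deep intronic peaks and 170 in the 7638 promoter peaks. In raw reads, the median member held 36 and 42 reads in WT, the first in the library labelled female, against 147.5 and 70 in the female and male KO libraries. Members made up 9.74% of the Rpb2 peaks and took 9.72% and 9.40% of the reads in peaks of the WT libraries and 9.65% and 9.71% of those of the KO libraries. The share was 9.56% ± 0.227 in WT and 9.68% ± 0.0469 in KO (SD, n = 2 pools each), a difference smaller than the spread between the WT pools. A 2-against-2 exact test cannot pass 0.05, so none was made of this share.

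**Figure D1:**
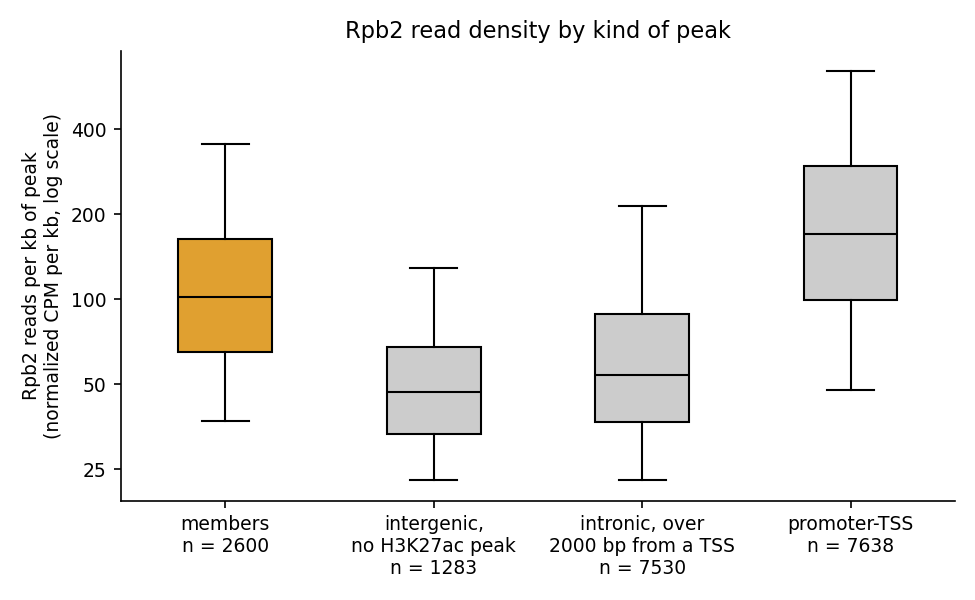
Rpb2 read density of members and of 3 other kinds of Rpb2 peak. The vertical axis is the mean over 4 libraries in normalized CPM per kb of peak on a log scale, boxes span the quartiles with the median as a line, and whiskers reach the 5th and 95th percentiles. The members' median of 101 lies between the 53.8 of the deep intronic peaks and the 170 of the promoter peaks.

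The members with the most Rpb2 sit at snRNA genes, which code for the RNA parts of the spliceosome. The 6 highest members, by reads in the peak and by reads per kb alike, all overlap annotated snRNA genes, and 15 of the 20 members at small RNA genes are at snRNA genes. The first, at *Gm25313* on chromosome 9 (65196384 to 65196657), held 938 and 965 WT reads against 2909 and 1428 KO reads. Normalized, this was 682 ± 66.5 CPM in WT and 543 ± 19.8 CPM in KO (SD, n = 2 each). The KO pools were both under the WT pools, at −0.33 on the log2 scale (SE 0.15), and the difference did not pass edgeR's quasi-likelihood test over all peaks (adjusted p = 0.406). The member at *Rnu5g*, a U5 snRNA gene on the same chromosome, held 635 and 687 WT reads against 2804 and 1096 KO reads. Its CPM was 473 ± 29.3 in WT and 469 ± 58.2 in KO, with overlapping pools. Next to *Sirt4* on chromosome 5, the member at *Gm24265*, which the deposited annotation calls U4, held 754 and 859 WT reads against 3279 and 1155 KO reads, and its neighbour at *Gm24407* held 422 and 427 against 1438 and 664. The member at *Gm25099*, upstream of *Kif2c*, held 845 and 649 WT reads against 2701 and 984 KO reads, with overlapping pools. The member at *Rnu2-10*, a U2 snRNA gene on chromosome 11, held 607 and 438 WT reads against 2254 and 1035 KO reads, or 380 ± 130 CPM in WT and 407 ± 4.34 CPM in KO. Of the 20 members at small RNA genes, 14 had at least 1 stretch of 51 bases that recurs in the assembly, and in 3 of them this was over 50% of the stretches, so counts at near-identical copies are uncertain. In KO against WT, 6 of the 20 had a log2 fold change above 0, the median was −0.06 and the range was −0.77 to 0.41. None passed the test, against 0.00749% of all peaks. Of the 20, 1 had an unadjusted p under 0.05 and DESeq2 called 0, against 12.2% and 3.83% of all peaks. The 20 members took 0.394% and 0.321% of the reads in peaks of the WT libraries and 0.357% and 0.323% of those of the KO libraries.

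**Figure D2:**
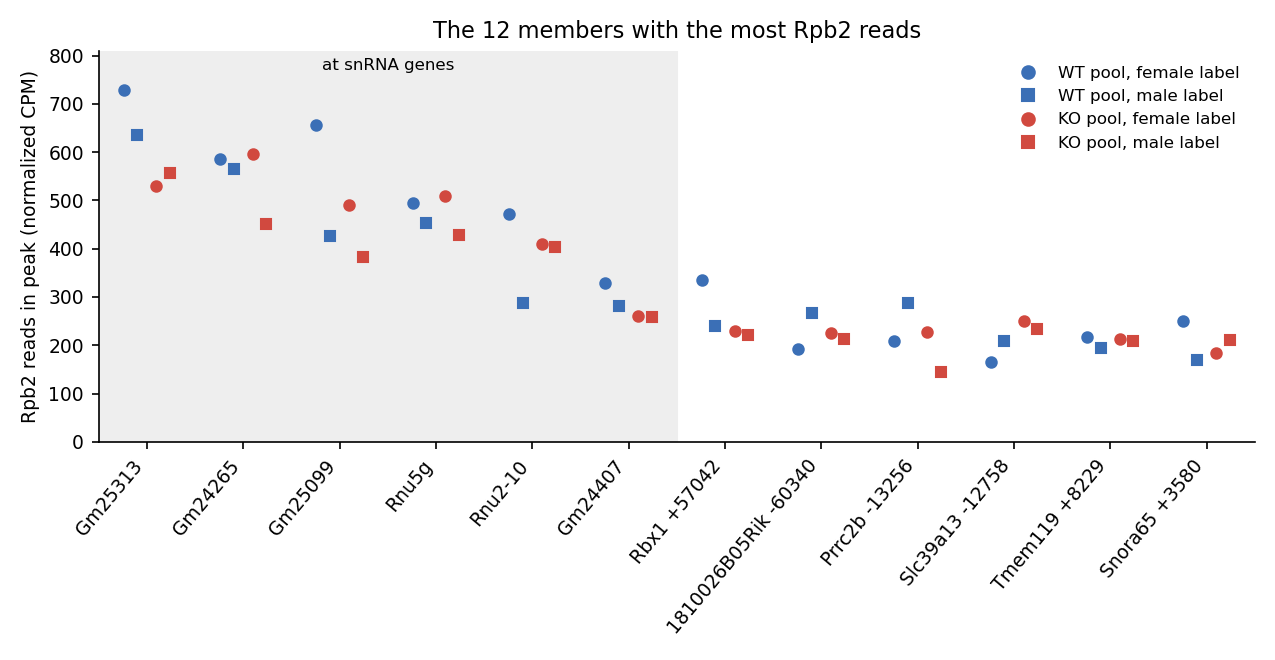
Rpb2 level of the 12 members with the most reads, in normalized CPM, with 1 point per pool. Members at snRNA genes are named by that gene and the others by the nearest gene and their distance to its TSS in bp. The 6 members at snRNA genes stand above the rest, and the pools of the genotypes overlap at most of the 12.

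Below these, the next highest members lie at CpG islands and near microglial genes. A CpG island 57042 bp downstream of the *Rbx1* TSS, with no GENCODE feature nearby, held 431 and 365 WT reads against 1268 and 568 KO reads, or 288 ± 67.1 CPM against 226 ± 6.37 CPM. Another CpG island, at −13256 bp from the TSS of *Prrc2b*, held 268 and 438 WT reads against 1249 and 372 KO reads. With 248 ± 56.5 CPM in WT and 186 ± 58.0 in KO, the spread within each genotype was near the difference between them. CpG islands at −60340 bp from *1810026B05Rik* and 3580 bp downstream of *Snora65* measured 229 ± 52.3 and 210 ± 55.9 CPM in WT and 220 ± 8.29 and 198 ± 19.4 CPM in KO, and their pools overlap. Upstream of *Spi1*, the tenth member by reads (chromosome 2, 91082853 to 91083294) held 212 and 316 WT reads against 1371 and 597 KO reads. It measured 186 ± 30.5 CPM in WT and 241 ± 11.6 CPM in KO, with both KO pools the higher, and did not pass edgeR's quasi-likelihood test (adjusted p = 0.505). The deposited annotation assigns it to *Slc39a13*, while GENCODE places a *Spi1* start 445 bp away, so it lies close to an annotated start. The peak also overlaps a GENCODE transcript of *Spi1*. *Tmem119* encodes a membrane protein that marks microglia. The member 8229 bp downstream of its start held 279 and 295 WT reads against 1174 and 538 KO reads, or 206 ± 16.1 CPM against 212 ± 2.56 CPM, and it lies 1606 bp past the end of the gene.

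Many acetylated peaks hold several members. The 2600 members lie in 1821 acetylated peaks, of which 1344 hold 1 member, 320 hold 2, 80 hold 3, 45 hold 4 and 32 hold 5 or more. The acetylated peaks with members were wider than the 19212 others called in both genotypes, with a median of 3700 bp against 2098 bp, and they held more H3K27ac per kb, at a median of 14.8 CPM against 9.81 CPM. Without the WT female H3K27ac library, these medians were 15.8 and 9.88 CPM per kb. A wider peak has more room for members, and the part of width in these values was not tested. Almost all members (2539, or 97.7%) were covered whole, and only 30 were covered by less than 50%. The middle of the median member lay 636.5 bp from the middle of its acetylated peak, and 1876 members (72.2%) lay in its inner 50%. Members with more Rpb2 per kb lay in acetylated peaks with more H3K27ac per kb. With members split by Rpb2 per kb into 4 groups of 650, the median H3K27ac of their acetylated peaks was 13.6, 15.1, 17.0 and 20.2 CPM per kb from the lowest group to the highest. Over all 2600 members, Spearman's rho was 0.36, and 0.34 without the WT female library. This correlation is across regions that share libraries, and members in the same acetylated peak share their H3K27ac value, so no p is given.

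The 2 acetylated peaks with the most members hold 11 each. The first spans 24222 bp on chromosome 2 (91078061 to 91102282), upstream of *Spi1* and over its start. Its 11 members held 751 and 862 WT reads of Rpb2 against 3565 and 1683 KO reads, and 9 of 11 had a log2 fold change above 0, with a median of 0.16 and a lowest adjusted p of 0.337. The 8 of them whose nearest gene is *Spi1* summed to 247 ± 16.9 CPM in WT and 257 ± 10.6 CPM in KO, a difference smaller than the spread between pools. The second lies 43975 to 52864 bp from the TSS of *Kctd1*, which encodes a BTB-domain repressor, and its 11 members held 473 and 556 WT reads against 2003 and 1048 KO reads. The next 3 lie near *Wnt2b*, which encodes a Wnt ligand, with 9 members, near *Cxxc5*, with 9, and near *Mir152*, with 8. Their lowest adjusted p values were 0.335, 0.282 and 0.605. Across the 5 peaks, the median spacing between neighbouring members ran from 726 to 890 bp. By nearest gene, *Kctd1* and *Sall1* led with 15 members each. *Sall1* encodes a transcription factor that keeps microglia in their resting identity, and its members lie in 6 acetylated peaks, from 2289 to 360201 bp from the TSS. Summed, they measured 414 and 494 CPM in WT and 428 and 349 CPM in KO, or 454 ± 57.1 against 388 ± 55.7 (SD, n = 2 each). The pools overlap, and the median log2 fold change of the 15 was −0.15 with a lowest adjusted p of 0.398.

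The PU.1 motif was found in a higher share of members than of the other sets of Rpb2 peaks. No test was made of these shares. The motif GAGGAAGT, on either strand, occurred in the central 200 bp of 203 of 2600 members (7.81%). It occurred in 1.33% of the intergenic peaks without H3K27ac, in 4.44% of the deep intronic peaks, in 2.93% of the promoter peaks and in 4.02% of the 26702 Rpb2 peaks on assembled chromosomes. In the 1094 members with no GENCODE feature nearby the share was 9.14%, and in the 751 past a gene end it was 8.12%. The IRF motif GAAANNGAA was in 8.08% of members, 5.07% of intergenic peaks without H3K27ac and 5.35% of all Rpb2 peaks. The MAF motif TGCTGAC was in 6.15%, 3.66% and 4.08% of these sets. The deep intronic peaks had 6.03% for IRF and 5.03% for MAF. The C/EBP motif TTGCNNAA was in 8.65% of members and 7.48% of the intergenic peaks without H3K27ac, the AP-1 motif TGANTCA in 6.46% and 6.00%, and the E-box CACGTG in 3.65% and 3.51%, so these differed by little. The RUNX motif TGTGGTT was in 5.73% and 6.47%, and the CTCF core CCACNAGGG in 1.31% and 1.09%. Over all Rpb2 peaks, shares were below those of members for C/EBP (6.39%), AP-1 (4.62%), RUNX (3.86%) and CTCF (0.996%). For the E-box the share over all Rpb2 peaks was above that of members (4.56%). In windows of 100 bp, the order of members and intergenic peaks without H3K27ac turned for RUNX (2.92% and 2.65%), C/EBP (3.69% and 4.29%), the E-box (1.58% and 1.64%) and CTCF (0.500% and 0.701%), so no direction is read from these. The order held in windows of 100, 200 and 300 bp for PU.1, IRF, MAF and KLF/SP. The rarest was the MEF2 motif CTATTTATA, in 4 members (0.154%). The KLF/SP motif GGGGCGG was in 6.12% of members and 1.25% of the intergenic peaks without H3K27ac, but in 26.1% of promoter peaks. Median GC content was 52.0% in members, 47.0% in the intergenic peaks without H3K27ac, 49.5% in the deep intronic peaks and 65.0% in promoter peaks, and its part in these shares was not tested. Among members, the PU.1 share did not rise with Rpb2 density, at 5.38%, 9.54%, 9.85% and 6.46% in the same 4 groups from the lowest to the highest, while the KLF/SP share was 9.69% in the highest group against 4.31% to 5.23% in the other 3. None of the printed windows holds GAGGAAGT. A match is a string of letters and not evidence that the factor was bound.

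**Figure D3:**
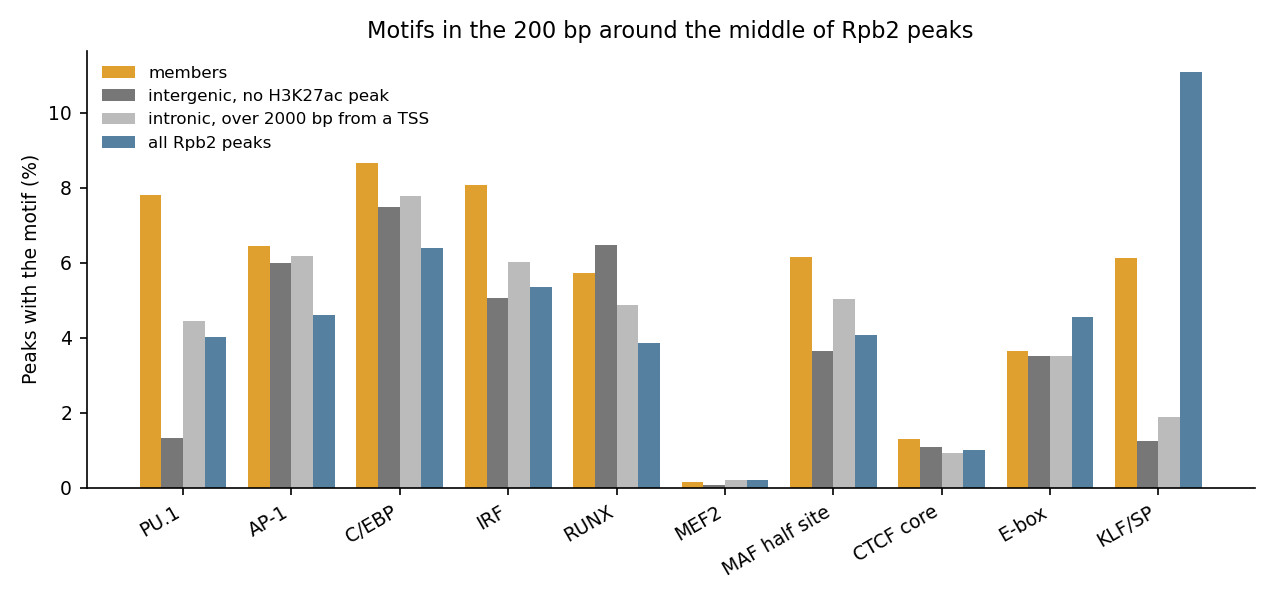
Share of Rpb2 peaks that hold each of 10 motifs on either strand in the 200 bp around the middle of the peak. Bars give the percentage for members, for intergenic peaks without H3K27ac, for deep intronic peaks and for all Rpb2 peaks. PU.1 is at 7.81% in members and 1.33% in the intergenic peaks without H3K27ac, and KLF/SP is highest over all peaks.

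Whether loss of *Cx3cr1* changes Rpb2 at members was tested with edgeR's quasi-likelihood test over all 26706 Rpb2 peaks. At an adjusted p of 0.05, 2 of 2600 members were called, both lower in KO, one downstream of *Cx3cr1* and one downstream of *Ccr1*. Both lie on chromosome 9, as does the disrupted gene. Loss of the receptor and sequence differences linked to the disrupted gene cannot be told apart in this design. In bulk samples such as these, fewer occupied cells and less Rpb2 per cell cannot be told apart either. The 2 members were the only calls among all peaks, so the background is 0.00749% of the peaks tested. On the log2 scale, KO over WT had a median of 0.03 over members and 0.04 over all peaks, with 1337 members above 0 and 1263 below. An unadjusted p under 0.05 was reached by 200 members (7.69%), 104 higher and 96 lower in KO, against a background of 12.2% of all peaks. The KO pools were both under the WT pools at 519 members and both over them at 602. The backgrounds over all peaks for these counts are 21.7% and 25.7%, near the members' shares. The pools of 1 genotype differed about as much as the genotypes did. With 0.5 CPM added, the median absolute log2 difference over members was 0.57 between the WT pools and 0.42 between the KO pools, and between the genotypes it was 0.55 for the female labels and 0.58 for the male labels.

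The list in which a peak was called is not independent of its direction, because the same reads were used for both. Of the members, 1466 came from the KO list alone, 281 from the WT list alone and 853 from both. Their median log2 fold changes were 0.33, −0.76 and −0.15, and these are a description of what the peak calling used. The KO list rests on deeper libraries. In a fit of the 8893 peaks called in both genotypes, 0 of 853 members were called by edgeR's quasi-likelihood test, against 0.09% of those peaks, and 50 (5.86%) had an unadjusted p under 0.05, against 9%. In the fit over all peaks, DESeq2 called 6 of the same 853 (0.703%). The share over all peaks was 3.83%, which includes the peaks of 1 list alone and is no matched background.

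**Figure D4:**
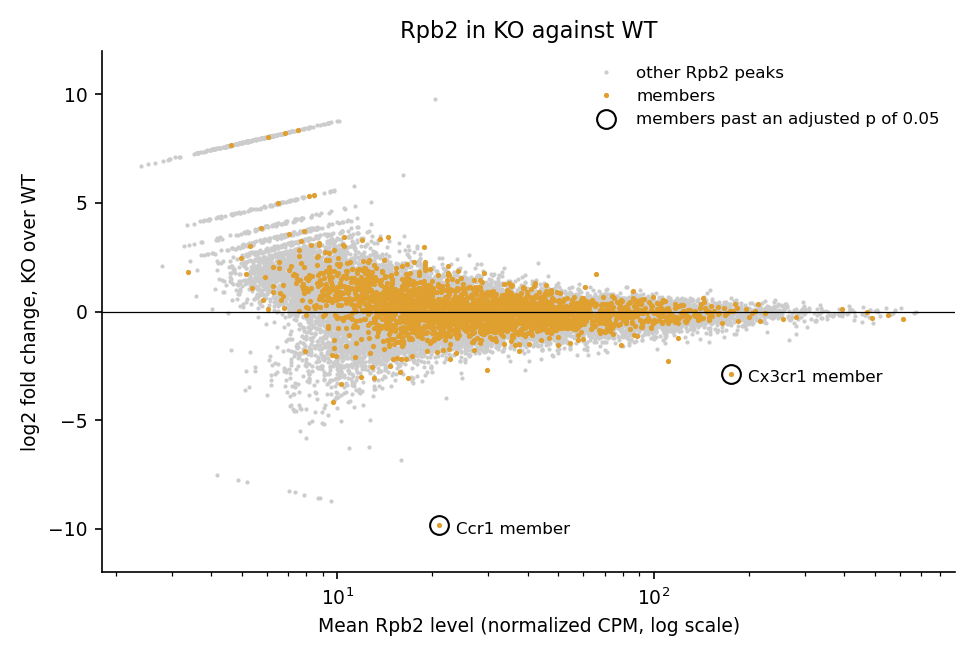
Log2 fold change of Rpb2 in KO over WT against the mean level in normalized CPM on a log scale, for members and for the other Rpb2 peaks. Circles mark the 2 members past an adjusted p of 0.05. Points in the outermost rows have no reads in either library of a genotype, and their fold change depends on a prior count.

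The member downstream of *Cx3cr1* (chromosome 9, 120046323 to 120046820, 21725 bp from the TSS) held 421 and 441 WT reads, the first from the library labelled female, against 193 and 130 KO reads. Both KO pools are low although their libraries are the deepest. Normalized, this was 309 ± 26.2 CPM in WT and 42.9 ± 11 CPM in KO (SD, n = 2 each), without overlap. KO over WT was −2.86 on the log2 scale (SE 0.26), 7.26-fold lower, with an adjusted p of 0.00264 in edgeR's quasi-likelihood test. Without KO replicate 1, the female pool, it was −2.60 and the adjusted p was 0.0858. The peak overlaps a GENCODE transcript of *Cx3cr1*. It is named in the KO list alone although its reads are higher in WT. It is the CA repeat printed above, and 5.80% of its stretches of 51 bases recur in the assembly. Its acetylated peak spans 47717 bp (120026314 to 120074030) and holds 3 other members. Those at −3909 and −4865 bp from the *Cx3cr1* TSS measured 32.9 ± 19.5 and 42.1 ± 19.6 CPM in WT and 25.7 ± 6.05 and 25.7 ± 9.39 CPM in KO, with overlapping pools and adjusted p values of 0.833 and 0.595 in the same test. The last, whose nearest gene is *Xirp1*, measured 20.3 ± 5.41 CPM in WT and 28.9 ± 2.83 CPM in KO (adjusted p = 0.716).

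The member called downstream of *Ccr1* (chromosome 9, 123923559 to 123923877, 44974 bp from the TSS) held 54 and 64 WT reads and 0 reads in both KO libraries. *Ccr1* encodes a receptor for inflammatory chemokines. The WT level was 42.1 ± 0.103 CPM (n = 2), and against 3 reads in each KO library, the limit that a count of 0 allows, KO was at least 49.0-fold lower (adjusted p = 0.0282, edgeR's quasi-likelihood test). The adjusted p was 0.238 without KO replicate 1 and 0.0984 without KO replicate 2. The annotation places it in a LINE repeat, yet only 0.372% of its stretches of 51 bases recur in the assembly. It shares an acetylated peak of 33611 bp (123922966 to 123956576) with 4 other members, of which those at 123924918 and 123932072 were added after their values were seen. The neighbour 1 kb further on (123924615 to 123924891), a CpG island, held 228 and 293 WT reads against 277 and 62 KO reads, or 185 ± 11 against 37.3 ± 18.5 CPM (log2 fold change −2.29, SE 0.34, adjusted p = 0.127). With the sex label as a replicate block it passed, at an adjusted p of 0.00578, and it was the third member called in that fit. In the other 3, the log2 fold change was above 0. At 123924918 to 123925123, the level was 47.8 ± 23.6 CPM in WT and 61.9 ± 14.2 CPM in KO, with overlapping pools. At 123928172 to 123928431, 39 and 46 WT reads stood against 494 and 289 KO reads, or 30.3 ± 0.029 against 101 ± 16.2 CPM (log2 fold change 1.74, SE 0.34, adjusted p = 0.198). At 123932072 to 123932275, the level was 59.5 ± 17.1 CPM in WT and 113 ± 26.9 CPM in KO (log2 fold change 0.93, SE 0.32, adjusted p = 0.285). In both of the last 2, the KO pools lay above the WT pools. The H3K27ac of the whole acetylated peak was 2720 and 8185 WT reads against 33501 and 29859 KO reads. As CPM of reads in H3K27ac peaks this was 769 and 1308 in WT and 2546 and 2397 in KO. Both KO values lay above both WT values, of which the first is from the WT female library that stands apart.

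**Figure D5:**
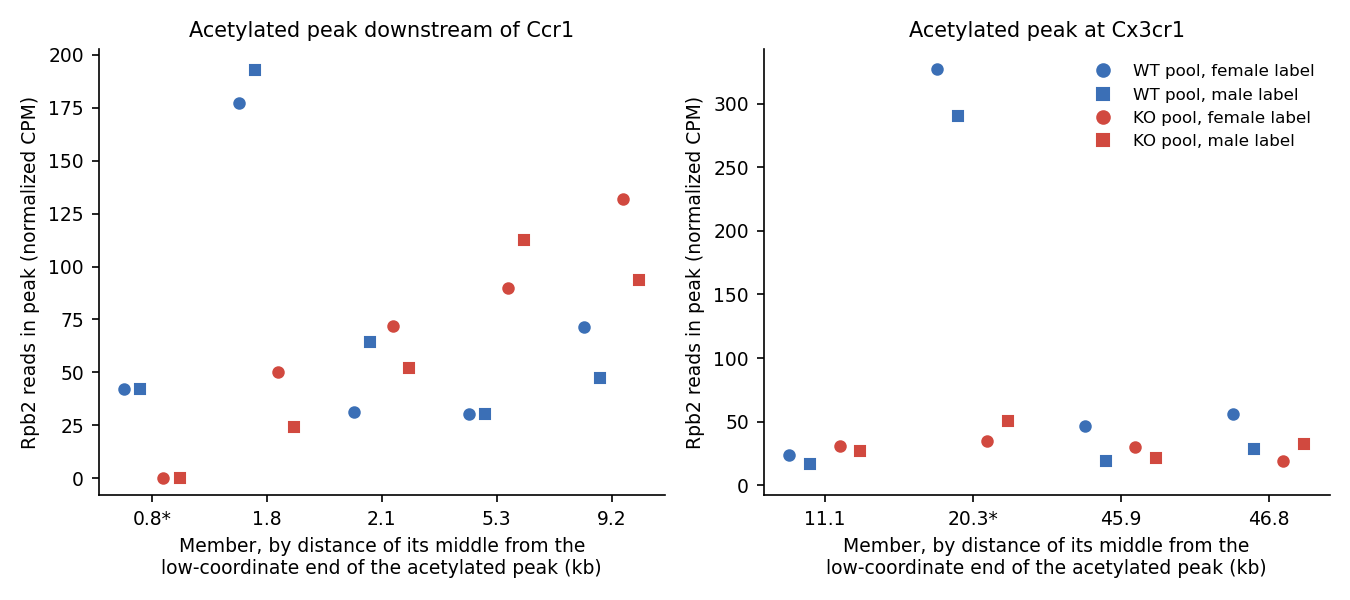
Rpb2 level in normalized CPM of every member in the acetylated peaks that hold the 2 called members, with 1 point per pool. Members are placed in order of their distance in kb from the low-coordinate end of the acetylated peak, and an asterisk marks an adjusted p under 0.05. Downstream of Ccr1, the members at 0.8 and 1.8 kb are lower in KO and those at 5.3 and 9.2 kb are higher.

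The other members among the 10 with the lowest p did not pass the test, and their adjusted p was 0.198 in edgeR's quasi-likelihood test. A CpG island 16557 bp downstream of the *Zfp239* TSS held 133 and 200 WT reads against 228 and 99 KO reads, or 118 ± 20.0 against 40.0 ± 2.01 CPM. A CpG island near *Tcf12*, a basic helix-loop-helix factor, held 63 and 83 WT reads against 57 and 13 KO reads. Downstream of *Glul*, which encodes glutamine synthetase, a member held 233 and 231 WT reads against 432 and 170 KO reads, or 167 ± 20.6 against 72.4 ± 8.66 CPM. Upstream of *Bicra*, which encodes a subunit of a chromatin remodelling complex, a member lies in a longer GENCODE transcript of the gene, and 37 and 47 WT reads stood against 18 and 10 KO reads. In the other direction, 4 members had no reads in either WT library. One near *Mir6904* held 60 and 49 reads in KO and one near *Mcl1*, which encodes a survival protein, held 65 and 40. Against 3 reads in each WT library, KO was at least 6.97-fold and 6.37-fold higher there. The same bound was 5.60 for a member near *Cd9* and 4.30 for one near *Atp8a2*, whose names were chosen after their values were seen.

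Of 30 genes that define resting microglia, 15 were the nearest gene of a member, with 47 members in all. Of these, 18 had a log2 fold change above 0 and 29 below, and the median was −0.17. The *Cx3cr1* member was the 1 called by edgeR's quasi-likelihood test and also the 1 (2.13%) called by DESeq2. The shares over all peaks were 0.00749% and 3.83%. An unadjusted p under 0.05 was reached by 5 (10.6%), near the 12.2% of all peaks. Beside *Tmem119* and *Cx3cr1*, the highest was a member 1233 bp past the end of *C1qb*, a complement gene, with 251 and 293 WT reads against 903 and 274 KO reads (194 ± 1.61 against 136 ± 40.5 CPM, adjusted p = 0.438). Both of its KO pools lay below the WT pools.

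Myeloid transcription factors had 67 members at 19 of 30 genes, with 38 above 0 and 29 below and a median log2 fold change of 0.16. Of these, 0 were called by edgeR's quasi-likelihood test and 1 (1.49%) by DESeq2, and 7 (10.4%) had an unadjusted p under 0.05, against 3.83% and 12.2% of all peaks in the last 2 counts. The highest were near *Klf2*, at 103 ± 5.59 CPM in WT and 131 ± 5.64 in KO (adjusted p = 0.598), *Mef2a*, at 84.9 ± 23.3 and 67.0 ± 9.19 (adjusted p = 0.691), and *Spi1*, at 92.8 ± 8.38 and 54.8 ± 9.63 (adjusted p = 0.355), all from edgeR's quasi-likelihood test. The *Spi1* member lies 12410 bp upstream of the TSS of the deposited annotation. By GENCODE, it overlaps a *Spi1* transcript and lies 1715 bp from a *Spi1* start. It was lower in both KO pools, next to the higher one described above. Among other factors, *Maf* had 7 members that summed to 169 ± 42.0 CPM in WT and 146 ± 15.8 in KO.

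Immediate-early genes, which are induced within minutes of a stimulus, had 44 members at 16 of 24 genes. Of these, 27 were above 0 and 17 below, the median log2 fold change was 0.22, 0 were called by edgeR's quasi-likelihood test and 2 (4.55%) by DESeq2, and 5 (11.4%) had an unadjusted p under 0.05. The last 2 shares are near the 3.83% and 12.2% of all peaks. Upstream of *Zfp36*, whose protein destabilizes cytokine mRNAs, a member held 146 and 198 WT reads against 905 and 433 KO reads (122 ± 11.9 against 167 ± 3.07 CPM, adjusted p = 0.462), with both KO pools above the WT pools. The highest members of *Btg2*, at 124 ± 15.2 and 125 ± 13.1 CPM, and of *Fos*, at 109 ± 16.3 and 105 ± 48.8 CPM, overlapped between genotypes. *Rhob* and *Btg2* had 6 members each, which summed to 303 ± 12.3 CPM in WT and 270 ± 22.6 in KO for *Rhob*, and to 360 ± 5.47 and 355 ± 17.2 for *Btg2*.

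Cytokine, chemokine and NF-kB genes had 18 members at 9 of 28 genes, of which 10 were above 0 and 8 below, with a median log2 fold change of 0.13. The 1 called member is that of *Ccr1*, and 5 of the 18 are the *Ccr1* members above. DESeq2 called 3 (16.7%, against 3.83% of all peaks), and 6 had an unadjusted p under 0.05 (33.3%, against 12.2% of all peaks). All 3 DESeq2 calls and 4 of these 6 lie in the 1 acetylated peak downstream of *Ccr1*, so they are not independent. *Tnfaip3* and *Nfkbia* encode inhibitors of NF-kB signalling. The highest *Tnfaip3* member, at −47332 bp, measured 77.7 ± 25.2 CPM in WT and 122 ± 27.9 in KO (adjusted p = 0.424), and that of *Nfkbia*, 1159 bp past the gene end, measured 94.0 ± 4.49 and 51.1 ± 9.98 CPM (adjusted p = 0.293). The pools of the genotypes lay apart at both, in opposite directions.

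Disease-associated microglia genes had 10 members at 6 of 24 genes, with 4 above 0 and 6 below and a median log2 fold change of −0.21. Of these, 0 were called by edgeR's quasi-likelihood test and 1 of 10 by DESeq2, and 2 of 10 had an unadjusted p under 0.05, against 3.83% and 12.2% of all peaks. The highest were near *Tyrobp*, an adaptor of TREM2, at 118 ± 11.4 CPM in WT and 90.6 ± 17.9 in KO, *Timp2* at 74.5 ± 6.38 and 111 ± 5.23, and *Ctsb* at 81.6 ± 13.1 and 72.8 ± 26.9. The KO pools were both lower near *Tyrobp*, both higher near *Timp2* and overlapping near *Ctsb*, and the adjusted p values were 0.604, 0.424 and 0.881 in edgeR's quasi-likelihood test. Antigen presentation genes had 1 member at 1 of 14 genes, near *H2-D1*, with 9 and 4 WT reads against 79 and 41 KO reads, and 38.2% of its stretches of 51 bases recur in the assembly. Markers of other brain and blood cells had 1 member at 1 of 32 genes, near *Flt1*, with 42 and 26 WT reads against 83 and 36 KO reads. Neither of these passed edgeR's or DESeq2's test, and neither had an unadjusted p under 0.05. The medians of these lists stand beside 0.03 over all members and 0.04 over all peaks. Setting members without reads in a genotype to the bound of 3 reads cannot test these medians. Such members stay on the same side of the median, which therefore does not move.

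The H3K27ac of the 1821 acetylated peaks with members is given as a description, since the peak lists of both genotypes were used to choose the members. On the log2 scale, their KO over WT had a median of 0.15, with quartiles of −0.04 and 0.30, against −0.21 over all 55798 H3K27ac peaks fitted. Without the WT female library, the median of the members' acetylated peaks was −0.06 against 0.14 over all peaks, and without the WT male it was 0.41 against −0.27. The sign, and the order of the members' acetylated peaks and all peaks, thus depend on which WT library is used.

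The distance limit of 2000 bp cut through a continuous set. Just inside it were members at −2005 bp from *Commd8*, with 23 and 42 WT reads against 177 and 102 KO reads, and at −2018 bp from *Dleu2*, with 42 and 57 WT reads against 260 and 156 KO reads. Just outside were peaks at −1999 bp from *Cttnbp2nl*, with 44 and 28 WT reads against 155 and 71 KO reads, and at −1991 bp from *Lck*, with 21 and 19 WT reads against 33 and 38 KO reads. The limit kept out 233 intergenic peaks outside LTR repeats that overlap an acetylated peak of both lists.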

How the data were processed

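ChIP-seq for Rpb2 and H3K27ac was analysed in 8 libraries. Single-end reads were aligned by the authors to mm10 with Bowtie2 and those with a unique position were used to call peaks in HOMER. Peaks that recurred between the pools of a genotype were merged over the genotypes, and the authors deposited their raw counts of reads, 1 value for each merged peak in each library, without normalization. The members and lists were chosen with earlier results of these data known.

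From these counts, genotypes were compared with edgeR 4.0.16 (R 4.3.3), by its quasi-likelihood test with TMM factors and Benjamini-Hochberg adjustment. The fit held all peaks that averaged 4 reads or more in a genotype and had genotype as its only term. Standard errors are those of the log2 fold change. Peak coordinates were tested against the chromosomes of GRCm38. Positions relative to genes are from GENCODE M21 and were given in this order: small RNA gene, start, transcript, gene end. The classes were set after the highest members were seen. Sequences were read with pyfaidx from the RefSeq assembly. Stretches of 51 bases were counted on both strands of the assembled chromosomes. Sex labels were shared by pools of different animals. The named members are the 12 with the highest mean CPM, the 10 with the lowest p, those nearest *Cx3cr1*, the 5 acetylated peaks with the most members, up to 3 genes per list, and those at the distance limit. Alternatives were DESeq2 1.42.0, edgeR's likelihood ratio test, library totals, other filters and sets of peaks, sex as a replicate block, and each library left out in turn. Python 3.11.15 was used for the other steps.

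Totals ran from 10395804 to 44332626 reads per library. Counts carry no molecular identifiers, so the limit of 3 reads covers counting error only. P values measure the spread between pools. In simulated counts of 26706 Rpb2 peaks with 200 changed 4-fold, the test recovered 54 and made 1 false call.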

Additional observations from a re-analysis of the deposited data

How the results depend on the processing

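The number of members called depended on the test and on the libraries. The 2 members of the main result became 56 with DESeq2 (22 higher and 34 lower in KO), 41 with edgeR's likelihood ratio test (20 and 21), 12 with its newer quasi-likelihood method (2 and 10), an alternative added after seeing the data, and 5 with at least 10 reads in every library, which leaves out the *Ccr1* member. They became 1 among the members away from GENCODE transcripts and gene ends. The count was 0 in a fit of the peaks of both lists, which holds neither called member. It was also 0 when the counts of members were summed per acetylated peak. An unadjusted p under 0.05 was reached by 50 of 853 in the former fit, against 800 of all 8893 peaks in it. In the latter it was reached by 130 of 1821 sums, against 3206 of all 25927 rows fitted. Over all Rpb2 peaks, the 2 calls became 1022, 924, 272, 30 and 8 with DESeq2, the likelihood ratio test, the newer method, the filter of 10 reads and the peaks of both lists. Leaving out 1 library gave 0 to 123 called members and 0 to 2210 called peaks. More were called without either WT library than without either KO library, among members and among all peaks alike. In these fits a lone pool is assumed to vary like the other genotype's. At the *Cx3cr1* member, the adjusted p of edgeR's quasi-likelihood test ranged from 7.04e-11 to 0.0858 over these, and at the *Ccr1* member from 6.14e-09 to 0.238. Both were lost without KO replicate 1, and the *Ccr1* member also without KO replicate 2 (adjusted p = 0.0984). The direction of both stayed negative in every refit that included them. A fit without 1 library leaves 1 pool in a genotype, so its counts cannot show whether members change more than other peaks. The median log2 fold change of members was 0.06 and 0.01 without WT replicates 1 and 2, against 0.05 and 0.06 over all peaks. Without KO replicates 1 and 2 it was 0.03 and 0.004, against 0.03 and 0.04 over all peaks.

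With sex as a replicate block, 3 members and 4 peaks in all were called, among them both members above and the CpG island beside the *Ccr1* member (adjusted p = 0.00578, against 0.127 without the block). The deviations of pools with the same sex label had a correlation of −0.03 over members, so the numbers do not pair these pools. With library totals in place of TMM, medians shifted to 0.35 over members and 0.37 over all peaks (log2, KO over WT), and the 2 members were still called. The PU.1 share of 7.81% became 3.85% in 100 bp, 11% in 300 bp and 9.14% in members with no GENCODE feature nearby. Without the 6 highest members, the mean share of Rpb2 reads in members was 9.34% in place of 9.62%. In 296 refits of 24 named members, 249 kept their side of the threshold, 44 passed it, 3 lost it and 0 called values changed sign. In the WT libraries the median member rests on 36 and 42 reads, and in simulated counts of the same peaks and libraries the test found 54 of 200 changes of 4-fold.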
